A study of Mus musculus with 2 samples.

Results

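The TAM genes comprise the receptor genes Tyro3, Axl and Mertk and the ligand genes Gas6 and Pros1. They were taken from the array as every probe set whose only annotated gene symbol was one of these 5, which gave 8 of the 45037 non-control probe sets and 5 of 18193 named genes. Both samples were cultures of mouse osteosarcoma cell lines, 1 array for LM8 and 1 for Dunn. LM8 is a highly metastatic subline, and Dunn is the parental line it came from, labelled non-metastatic. The labels name no treatment or genetic change in either line, and both were kept in Minimum Essential Medium Eagle with 10% serum, glutamine, antibiotics and 1% non-essential amino acids. The members were chosen by their signals in this same LM8 and Dunn contrast, so their values are given as a description. With 1 array per line there is no replicate error, and no test was possible; having only 2 arrays limits the precision.

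TAM receptors are receptor tyrosine kinases with immunoglobulin-like and fibronectin type III repeats outside the cell. Their ligands Gas6 and protein S, the product of Pros1, carry a domain of gamma-carboxylated glutamates, made with the help of vitamin K, that binds phosphatidylserine on dying cells and so bridges these cells to the receptor. Gas6 can bind all of the TAM receptors, and protein S mainly Tyro3 and Mertk. The system is known for the clearance of dead cells and the damping of innate immune signalling by Mertk in macrophages, and for Axl in the survival and migration of tumour cells.

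Gas6 and Mertk were lower in LM8 than in Dunn, and no TAM gene was at least 2-fold higher. On the brightest measured probe set of each gene, 2 of the 5 genes were at least 2-fold lower in LM8, none was at least 2-fold higher and 3 lay between. Among all 11830 measured genes, 8.84% were at least 2-fold lower and 6.51% at least 2-fold higher. The median log2 ratio of LM8 over Dunn was -0.34 over the 5 genes and -0.08 over all measured genes. At the level of probe sets, 3 of 7 measured ones were at least 2-fold lower, 4 lay between and none was 2-fold higher, against a background of 7.79% lower and 5.91% higher among 25144. This contrast was used to choose the members, so nothing is read from these counts. The floor of an array was its median signal (18.96 for LM8 and 21.06 for Dunn), and a probe set counted as measured when it exceeded the floor in either line. The eighth probe set, for Axl, was under the floor on both arrays.

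Gas6 and Mertk had the largest differences, and the sequence before their annotated starts is shown to place both genes and their GC boxes. Gas6 lies on chromosome 8 from 13465374 to 13494535 and Mertk on chromosome 2 from 128698915 to 128803162 in the GRCm38.p6 assembly. The 250 bases before each start come from RefSeq at chr8:13494536-13494785 on the minus strand for Gas6 and chr2:128698665-128698914 on the plus strand for Mertk. They read 5′ to 3′, with capitals marking GC boxes (GGGCGG on either strand, the letters bound by Sp1-type factors).
Gas6: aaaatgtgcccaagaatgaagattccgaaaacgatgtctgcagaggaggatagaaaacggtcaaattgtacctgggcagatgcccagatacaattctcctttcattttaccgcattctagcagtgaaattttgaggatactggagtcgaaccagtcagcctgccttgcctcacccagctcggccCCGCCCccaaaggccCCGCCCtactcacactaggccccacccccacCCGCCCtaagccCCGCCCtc
Mertk: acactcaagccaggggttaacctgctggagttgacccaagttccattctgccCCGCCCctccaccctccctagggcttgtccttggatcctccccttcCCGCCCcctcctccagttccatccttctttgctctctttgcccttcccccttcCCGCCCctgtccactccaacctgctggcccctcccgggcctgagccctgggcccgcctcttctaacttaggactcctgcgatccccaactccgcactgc
The Gas6 window held 4 GC boxes and the Mertk window 3, all as CCGCCC on the strand shown. The same 250-base windows held 5 for Pros1, 3 for Tyro3 and 1 for Axl, so the genes with and without a 2-fold difference all had at least 1. Of 32851 such windows in the RefSeq table, 32.7% held a GC box. Neither TATAAA, found in 12.4% of all windows, nor the AP-1 letters TGANTCA, found in 6.75%, occurred in any of the 5 TAM windows on either strand. GC content was 54.8% for Gas6, 63.6% for Mertk, 64.4% for Pros1, 73.2% for Tyro3 and 60.0% for Axl, against a median of 52.4% over all windows. These matches describe letters and not binding.

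Of the ligands, Gas6 was bright in Dunn and much dimmer in LM8. Its probe set 1417399_at, designed on NM_019521, had a signal of 118 in LM8 and 1638 in Dunn. LM8 was thus 13.8-fold lower, with a log2 ratio of -3.79. Both signals lay well above the floors, 6.25 times over in LM8 and 77.8 times over in Dunn. In Dunn this signal exceeded those of nearly all probe sets (percentile 98.1), and in LM8 it stood at percentile 78.4. Only 12 measured genes had a lower ratio than Gas6, which ranked 13 of 11830. Among the 9585 probe sets with a signal of at least 100 on both arrays, 1 had a lower ratio, and it belonged to the matrix Gla protein gene Mgp. That limit leaves out probe sets that fell under 100 in LM8, so few could have a lower ratio than Gas6. Over all 25144 measured probe sets, 21 had a ratio at or below that of 1417399_at, itself included.

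The other Gas6 probe set, 1459585_at, designed on the expressed sequence tag BG069502, did not show a difference of that size. It had a signal of 20.9 in LM8 and 29.1 in Dunn, with a log2 ratio of -0.48. Both signals lay close to the floors, at 1.10 and 1.38 times their value. The SD of the log2 ratio between these 2 probe sets was 2.34, while its median over 5521 genes with several measured probe sets was 0.30. That spread is between probe sets on the same 2 arrays and is no replicate error. Its cause was not tested. With the 2 probe sets averaged, Gas6 had a log2 ratio of -2.13.

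Pros1, the gene of the other ligand, differed little between the lines. Its 1 probe set, 1426246_at, gave 80.4 in LM8 and 64.1 in Dunn, a log2 ratio of 0.33. Both signals were dim but above the floors, at 4.24 and 3.05 times. Pros1 lies on chromosome 16 from 62854307 to 62929346 (GRCm38.p6).

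Among the receptors, Mertk was the lowest in LM8 relative to Dunn. Its 1 probe set, 1422869_at, had a signal of 24.8 in LM8 and 101 in Dunn, a 4.08-fold lower value in LM8 with a log2 ratio of -2.03. The LM8 signal was 1.31 times the floor and the Dunn signal 4.81 times. Among measured genes, 1.43% were at least 4-fold lower in LM8. Among 14188 measured probe sets with neither signal at 120 or above, as for Mertk, 7.36% were at least 2-fold lower in LM8 and 4.67% at least 2-fold higher. With the floor raised to the 75th percentile of each array (91.7 in LM8 and 95.6 in Dunn), only the Dunn signal lay above it and the log2 ratio was -0.14, which ended the 2-fold difference.

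The 2 probe sets of Tyro3, a receptor best known from the nervous system, both gave lower signals in LM8 but by different amounts. Probe set 1425248_a_at gave 20.8 in LM8 and 49.6 in Dunn, 2.38-fold lower in LM8. Probe set 1425249_a_at gave 32.7 in LM8 and 41.6 in Dunn, 1.27-fold lower in LM8. Both were designed on AB000828, and their suffix marks probes shared by several transcripts of 1 gene. The log2 ratios were -1.25 and -0.34, with an SD of 0.64. The second probe set was the brighter one by mean log2 signal and stands for the gene in the counts. The larger difference came from the probe set whose LM8 signal was 1.10 times the floor. Tyro3 lies on chromosome 2 from 119797740 to 119818104 (GRCm38.p6).

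Axl, the receptor most often linked to tumour cell migration, had a dim and similar signal in both lines. Probe set 1423586_at gave 48.0 in LM8 and 41.0 in Dunn, a log2 ratio of 0.23. The other, 1438621_x_at, gave 13.4 in LM8 and 1.38 in Dunn, both below the floors of 18.96 and 21.06, so no fold is given. With no floor it would be the 1 TAM probe set counted as at least 2-fold higher. Its suffix marks probes that may also match other genes. Axl lies on chromosome 7 from 25756500 to 25788924 (GRCm38.p6).

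**Figure D1:**
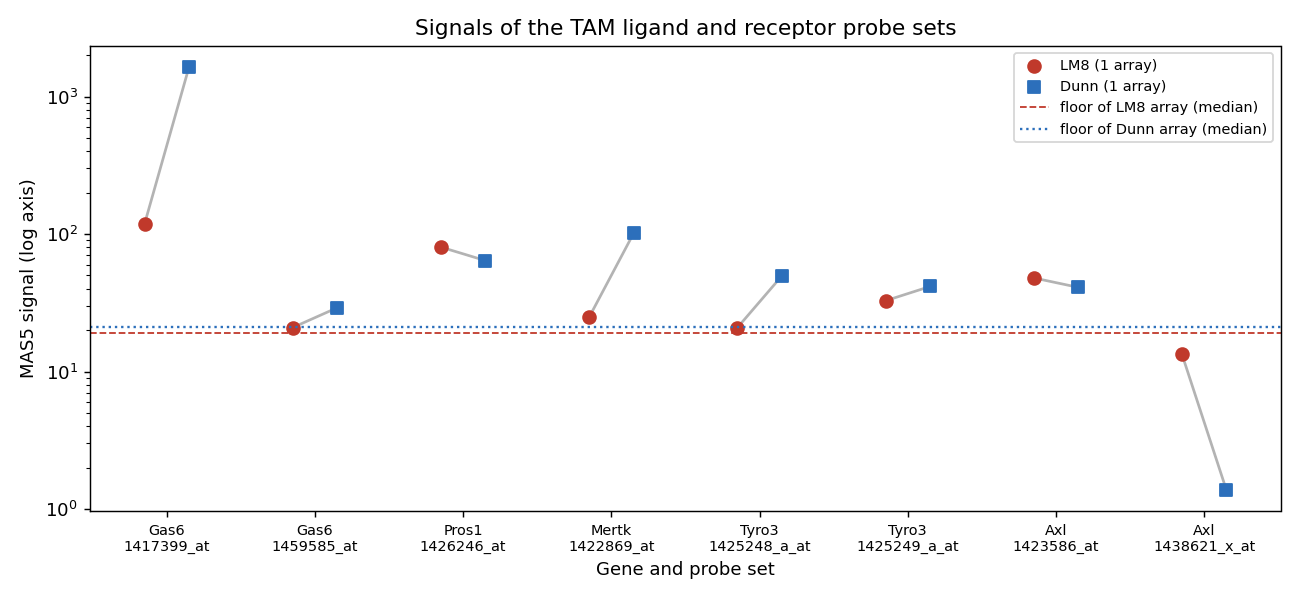
MAS5 signal (log axis) of the 8 TAM probe sets, with the LM8 array as circles left of the Dunn array as squares and each array's floor as a horizontal line. The probe set 1417399_at of Gas6 spans 118 in LM8 to 1638 in Dunn, Mertk 24.8 to 101, and the lower Axl probe set lies under both floors.

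**Figure D2:**
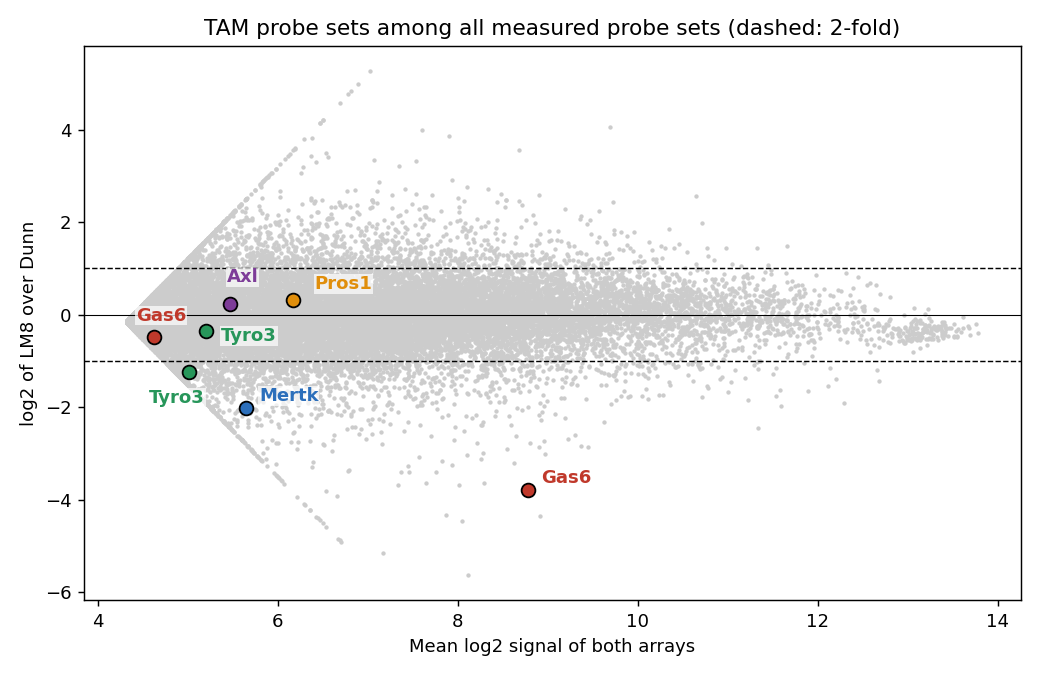
The log2 ratio of LM8 over Dunn against the mean log2 signal for all 25144 measured probe sets (grey) and the 7 measured TAM probe sets (coloured, named by gene), with dashed lines at 2-fold and signals under a floor set to it. The brighter Gas6 probe set, at -3.79, stands far below the cloud at its signal, whereas the other TAM probe sets lie among the dim ones at the left.

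Set beside other receptor tyrosine kinases, Mertk stood at the low end of the log2 ratios, and Tyro3 and Axl lay among the others. Of 54 listed kinases outside the family, 52 had a probe set of their own and 29 were measured, 2 of them at least 2-fold higher in LM8, 5 lower and 22 between (median log2 ratio -0.11). With scaling on the hybridisation controls the balance turned to 4 higher and 2 lower (median 0.13), and the median was between 0.03 and 0.04 in the other scalings. Mertk had a lower ratio than any of these 29 with signals held at the floor. Fgfr4, with 6.18 in LM8, under the floor, and 38.3 in Dunn, has only a bound of -1.01, and its raw signals would give -2.63. It is among the 5 lower kinases but counted as measured through Dunn alone, so it had to come out lower. Tyro3 had 13 below it and 16 above, and Axl 21 below and 8 above, again with signals held at the floor. Of those below Axl, Ntrk3, Epha4 and Ephb3 were held at the floor in Dunn, and their raw signals would place them above it. The measured kinases nearest to Mertk in log2 ratio, over these 2 arrays, were the ephrin receptor gene Epha3 at -1.78, the macrophage growth factor receptor gene Csf1r at -1.49 and the ephrin receptor gene Epha2 at -1.23. Epha3 had signals of 515 in LM8 and 1766 in Dunn, and its 4 probe sets lay between -1.78 and -1.54. Csf1r gave 26.8 in LM8 and 75.1 in Dunn, but its 3 probe sets ranged from -1.49 to 0.48. With signals held at the floor, the largest difference upward was that of the fibroblast growth factor receptor gene Fgfr3 (log2 ratio 1.51). Fgfr3 gave 790 in LM8 and 278 in Dunn. Ntrk2, Ntrk3, Epha4 and Ephb3 were under the floor in Dunn, so their ratios are only bounds. Their raw signals would give 2.80, 2.59, 2.56 and 1.79.

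Mertk is a gene of macrophages as well, so macrophage markers were read on the same arrays. Of 15 markers, 7 were measured, none was 2-fold higher in LM8, 2 were lower (Csf1r and the lysozyme gene Lyz2) and 5 lay between. In LM8, 5 of the 7 were under the floor, so they counted as measured through Dunn alone and had to come out lower in LM8. Over all 15 markers, floors aside, the signal was lower in LM8 for 10 and higher for 5, with sums of 183 in LM8 and 358 in Dunn. But 8 of the 15 were under the floor on both arrays. The share of all genes lower by any amount was not counted, so nothing is read from this split. Lyz2 gave 1.90 in LM8, under the floor, and 44.8 in Dunn, so it was at least 2.36-fold lower. The defining markers Ptprc (8.62 in LM8 and 5.77 in Dunn) and Itgam (15.1 in LM8 and 2.47 in Dunn), and the complement genes C1qa, C1qb and C1qc, were below the floor in both lines, and Adgre1 gave 18.2 in LM8 and 23.1 in Dunn. The part of macrophage RNA in the Mertk difference was not tested. Fewer cells of a type and less RNA per cell cannot be told apart in such bulk samples. Several osteoblast markers were bright in both lines, such as the alkaline phosphatase gene Alpl at 1739 in LM8 and 1266 in Dunn. Col1a1 gave 3537 in LM8 and 2399 in Dunn. Others were dim in at least 1 line, with Ibsp at 96.6 in LM8 and 239 in Dunn and Postn at 86.0 in LM8. Postn in Dunn (8.70) and Dmp1 in both lines (9.77 in LM8 and 12.4 in Dunn) were under the floor. Of 10 such markers 8 were measured, 1 (Postn, measured through LM8 alone) higher, 2 (Ibsp and Pth1r) lower and 5 between (median 0.05).

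No measured gene of ligand gamma-carboxylation and propeptide removal was 2-fold apart, though Furin and Ggcx came close. Of 10 genes of gamma-carboxylation and propeptide removal, 9 were measured and all 9 lay between (median -0.20). The carboxylase gene Ggcx gave 36.0 in LM8 and 69.7 in Dunn (-0.95), the vitamin K reductase gene Vkorc1 512 in LM8 and 649 in Dunn (-0.34), and the proprotein convertase gene Furin 55.4 in LM8 and 109 in Dunn (-0.98). Of 13 other genes for proteins with such a glutamate domain, 4 were measured, 1 of them lower and 3 between (median -0.38). The lower one was Mgp, which encodes an inhibitor of mineralisation, with a signal of 107 in LM8 and 2193 in Dunn. Mgp was 20.6-fold lower in LM8 on its 1 probe set.

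Other genes of phosphatidylserine recognition and engulfment included 3 that were at least 2-fold lower in LM8, with Megf10 the lowest. For this and the other lists, the share over all measured genes was 8.84% lower and 6.51% higher. Of 25 engulfment genes listed, 18 were measured, 1 higher, 3 lower and 14 between, with a median log2 ratio of -0.45. On the hybridisation controls 2 were higher and 1 was lower, and with probe sets averaged none was higher and 5 were lower. Megf10, an engulfment receptor gene, gave 56.8 in LM8 and 710 in Dunn, 12.5-fold lower in LM8. Gulp1, an engulfment adaptor gene, gave 74.3 in LM8 and 172 in Dunn, with its 3 probe sets between -2.01 and -1.16. The scavenger receptor gene Cd36 gave 8.12 in LM8, under the floor, and 42.2 in Dunn, at least 2.23-fold lower. Cd36 counted as measured through Dunn alone, so it had to come out lower in LM8. The integrin gene Itgav, whose product takes up cells marked by the bridging protein of Mfge8, gave 628 in LM8 and 186 in Dunn, but its 3 probe sets ranged from -0.09 to 1.76. Mfge8 itself gave 156 in LM8 and 279 in Dunn (log2 ratio -0.84).

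Genes that expose, return or, for Anxa5, bind phosphatidylserine gave 7 measured of 11 listed, 1 lower and 6 between (median -0.24). The lower one was Plscr1, a scramblase family gene, with 56.0 in LM8 and 194 in Dunn and log2 ratios of -1.79 and -1.59 on its 2 probe sets. Among 29 genes of TAM signalling partners and shedding proteases, 25 were measured, 1 higher, 2 lower and 22 between, with a median log2 ratio of 0.22. With a pseudocount at the array median none was 2-fold apart, and with probe sets averaged none was higher and 1 was lower, so the call of Adam17 was lost in both. Adam17, a protease gene known for releasing the outer part of Mertk, gave 275 in LM8 and 132 in Dunn, with log2 ratios from 0.83 to 1.06 on its 3 probe sets. The adaptor gene Nck1 gave 94.3 in LM8 and 202 in Dunn (-1.10). Tns2, a tensin gene, gave 14.5 in LM8, under the floor, and 42.3 in Dunn, at least 2.23-fold lower. It too counted as measured through Dunn alone and had to come out lower in LM8. The 2-fold calls of Cd36, Gulp1, Epha2, Lyz2, Nck1, Pth1r and Tns2 were lost with scaling on the hybridisation controls, where the median of all genes moved to 0.16, and that of Nck1 also with arrays centred on their medians (-0.95).

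**Figure D3:**
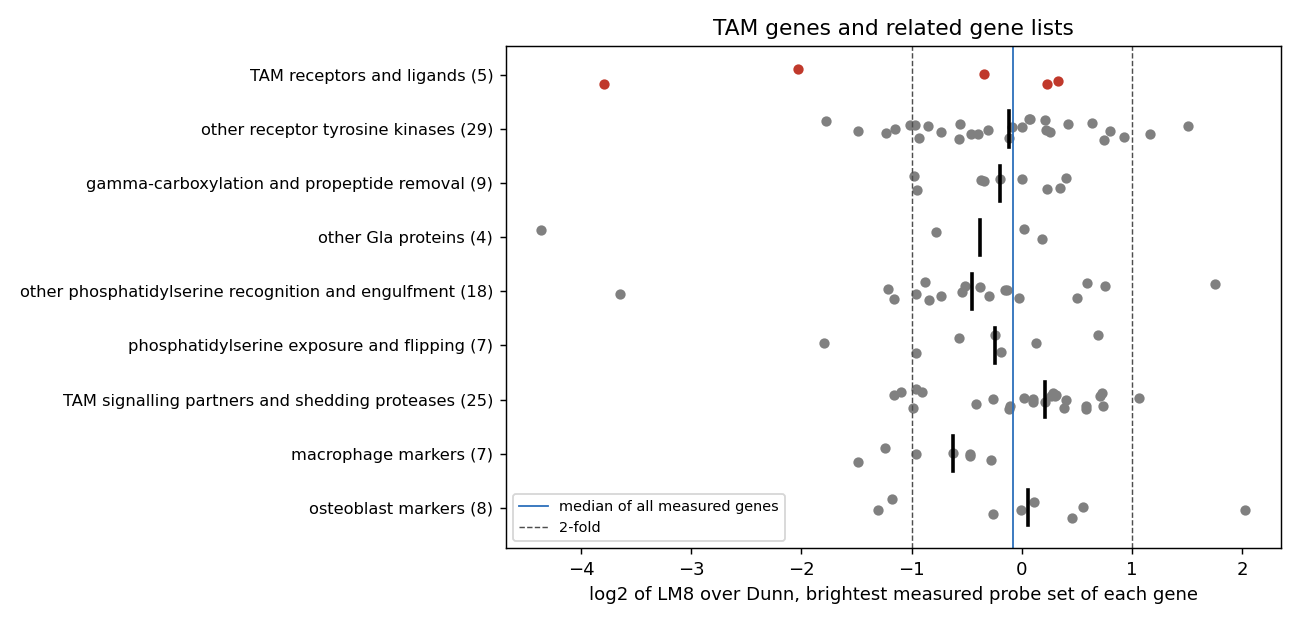
The log2 ratio of LM8 over Dunn for the brightest measured probe set of each gene (points), with the 5 TAM genes in red above 8 related gene lists, medians of the measured genes of each list as black bars, the median of all measured genes as a blue line and 2-fold as dashed lines. Gas6 and Mertk lie left of the 2-fold line at -3.79 and -2.03, and Mgp (-4.36) and Megf10 (-3.64) stand apart from the rest of their lists.

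**Figure D4:**
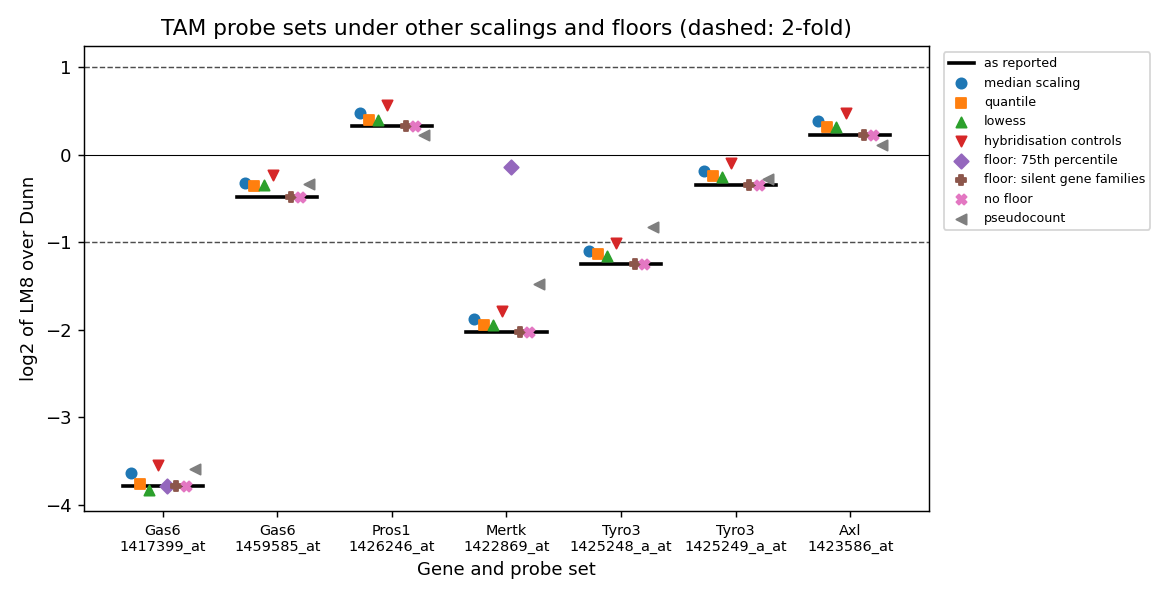
The log2 ratio of LM8 over Dunn of the 7 measured TAM probe sets as reported (black bars) and under 8 other scalings and floors (symbols, where measured), with dashed lines at 2-fold. The brighter Gas6 probe set stays between -3.83 and -3.55, and the Mertk value nearest 0, -0.14, comes from the floor at the 75th percentile.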

How the data were processed

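RNA of each line (10 µg) was hybridised to an Affymetrix Mouse430_2 array, per the labels' protocols and the file headers. The values deposited by the authors were linear signal intensities from MAS5, per the submitters' processing notes; its version and settings are not given in the sources used here. The 64 control probe sets were left out, and arrays were put on a common 2% trimmed mean. Signals below an array's median were set to it. Genes were named through the platform annotation, updated by gene identifier (99.4% of 34958 probe sets matched) against a GRCm38.p6 table, and took the value of the probe set brightest by mean log2 signal. Where 1 array was at its floor, the fold is a lower bound (at least). Genes were counted at 2-fold, with no test.

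All 5 members were named, with up to 4 genes per list by largest ratio among those 2-fold apart. Kinases nearest to the receptor with the largest ratio were added. Other list genes were picked after their values were seen. Members and lists were chosen with earlier results of these data known. Scaling and the 2-fold calls were tested on simulated arrays, with changes planted in bright probe sets only. Changes in dim probe sets, the other floors and scaling on the hybridisation controls were not tested this way. Analysis used matplotlib 3.10.9, statsmodels 0.14.6, pandas 2.3.3, scipy 1.17.1 and numpy 2.4.6 under Python 3.11.15.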

Additional observations from a re-analysis of the deposited data

How the results depend on the processing

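No alternative turned the direction of a TAM gene or of its measured probe sets. The counts of 2 genes and 3 probe sets apart by 2-fold became 1 and 1 with the floor at the 75th percentile, where 2 of the 5 genes were measured, Gas6 and Mertk. The 3 probe sets became 2 with a pseudocount or at 3-fold, and 4 with no floor (3 lower, and an Axl probe set under both floors higher). Gas6 ranged from -3.83 to -2.13 in log2 ratio, -2.13 being the value with probe sets averaged, and Mertk from -2.03 to -0.14 (-1.48 with a pseudocount at the array median). The Tyro3 probe set at -1.25 was -0.83 with the pseudocount, and the gene was -0.80 with probe sets averaged. Axl ranged from 0.11 to 0.47 and Pros1 from 0.22 to 0.57. The settings were 4 scalings, 4 floor rules, probe set means and a 3-fold rule. Scaling on 12 bacterial hybridisation controls (mean log2 ratio -0.24, SD 0.10) and a floor at the 95th percentile of 83 probe sets of olfactory, vomeronasal and taste receptor genes (18.04 in LM8 and 25.6 in Dunn) were chosen after seeing the data. Over all genes, higher and lower calls numbered 770 and 1046 as reported, 1025 and 775 with arrays centred on their medians, and 1237 and 639 on the hybridisation controls. With neither floor nor filter they were 2553 and 3351, 377 and 397 with that higher floor, and at 3-fold 294 and 336. No paired analysis was possible because each line had 1 array. Signals near the floor limit what can be said of Mertk, Tyro3, Axl and the dim Gas6 probe set.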
